A study of Mus musculus with 16 samples.

Results

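Cycling CD4+ T cells were examined in the mediastinal lymph node (medLN), which drains the lung, and the mesenteric lymph node (MLN), which drains the intestine. A cell was counted as cycling when it held at least 1 UMI (unique molecular identifier, a single counted transcript) of *Mki67*, the gene of the proliferation antigen Ki-67, and at least 1 UMI of *Top2a*, which encodes the topoisomerase that untangles replicated DNA. Under this rule 885 cells were cycling, of 17104 cells assigned to 1 mouse and organ, 19683 cell barcodes in this sequencing run and 26002 in the series. Because measured values of these 2 genes chose the cells, comparisons of cycling with other cells are given as descriptions. This also holds for counts from fits of how an organ or gate difference varied between cycling and other cells, since the same genes made that split.

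The cells came from 2 female 4get/C57BL/6 mice of 10 weeks, in which every cell carries an IL-4eGFP reporter allele, so that cells licensed to express the cytokine IL-4 fluoresce. Both mice had received 500 third-stage larvae of the helminth *Nippostrongylus brasiliensis*, whose larvae pass through the lung and mature in the gut, and were analysed at day 10. From medLN and MLN of each mouse, CD4+IL-4eGFP+ and CD4+IL-4eGFP- cells were sorted, and each sort gate was loaded as 1 droplet library (10x Genomics, 5′ chemistry) pooled over mice and organs. This gave 8 samples, 2 mice for each organ and gate, which are the replicates here. The same 2 mice supply all groups, no uninfected mouse was part of this run, and p-values measure only the spread between these samples. Each gate was 1 library, so gate and library cannot be told apart.

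Proliferating cells pass through G1, in which cyclin D and cyclin E kinases release the E2F transcription factors, then S phase, in which DNA and histones are made, and then G2 and mitosis, in which chromosomes are condensed and separated. Naive CD4+ T cells rest outside this cycle. After antigen recognition in a draining lymph node they divide repeatedly while they differentiate into T helper 2 (Th2) cells, follicular helper cells or other effector cells, and regulatory T cells can divide in the same nodes.

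Mouse and organ were encoded by 4 antibody-coupled hashtag oligonucleotides, shown because every sample below is defined by them. A cell was assigned when 1 of them supplied at least 80% of its hashtag UMIs and at least 10 UMIs. The 15-base barcodes are printed 5′ to 3′ in lower case, and any 2 of them differ at 11 or more positions.
mouse 1 medLN: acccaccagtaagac
mouse 2 medLN: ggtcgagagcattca
mouse 1 MLN: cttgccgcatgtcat
mouse 2 MLN: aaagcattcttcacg
Cells assigned to them numbered 4315, 4308, 4267 and 4214, in the order printed, and cycling cells 221, 254, 172 and 238.

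The IL-4eGFP+ library held 51993078 UMIs in 9603 barcodes and the IL-4eGFP- library 40244390 UMIs in 10080 barcodes. Cycling cells were rich in RNA, with a median of 13588 UMIs against 3188 in other cells of the IL-4eGFP+ gate and 10748 against 3302 in the IL-4eGFP- gate. They therefore held 30.4% of the assigned UMIs of the IL-4eGFP+ library while making up 9.47% of its cells. A deeper cell is also more likely to show a UMI of both marker genes, and shares are for that reason also given after thinning each cell to 1500 UMIs. The libraries shared 155 barcodes, 14 of them cycling cells of the IL-4eGFP+ gate and 0 of the IL-4eGFP- gate.

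T cell markers fitted the label of the cells. *Cd3e*, a chain of the T cell receptor complex, gave a UMI in 98.3% of cycling IL-4eGFP+ cells and 97.3% of cycling IL-4eGFP- cells, and *Cd4* in 82.6% and 65.8%. *Cd8a*, which marks cytotoxic T cells, was seen in 0 of 774 and 1 of 111 cells. *Cd8b1*, which encodes the other chain of that co-receptor, stood at 5.03 to 7.57 CPM in cycling cells of the IL-4eGFP+ samples and at 7.70 to 46.4 CPM in those of the IL-4eGFP- samples, and was called lower in IL-4eGFP+ (log2 -1.90 ± 0.47, edgeR adjusted p = 0.0164). That call was lost in 4 of 8 fits that left out 1 sample (edgeR adjusted p up to 0.386), namely without mouse 1 of IL-4eGFP+ medLN or mouse 2 of IL-4eGFP+ MLN, IL-4eGFP- medLN or IL-4eGFP- MLN. Of the 885 cycling cells, 9 held 5 or more UMIs summed over the B lineage genes *Cd79a*, *Ms4a1*, *Jchain* and *Mzb1*, and 5 of them lay in the IL-4eGFP+ medLN samples. These few cells held 510 of 510 *Jchain* UMIs of mouse 1 and 130 of 132 of mouse 2 in the IL-4eGFP+ medLN. *Jchain* and *Mzb1* values below therefore describe few cells. *Cd74* rests on them only in part. They held 613 of 842 *Cd74* UMIs of mouse 1 and 45 of 194 of mouse 2 in the IL-4eGFP+ medLN.

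Cycling cells were more frequent in the IL-4eGFP+ gate in both organs. In IL-4eGFP+ medLN they made up 9.39% of cells in mouse 1 (194 of 2067) and 10.4% in mouse 2 (217 of 2087), and in IL-4eGFP+ MLN 7.53% (151 of 2004) and 10.5% (212 of 2014). In the IL-4eGFP- gate the shares were 1.20% (27 of 2248) and 1.67% (37 of 2221) in medLN and 0.928% (21 of 2263) and 1.18% (26 of 2200) in MLN. No IL-4eGFP- sample reached the lowest IL-4eGFP+ sample. The mean share was 9.46% ± 1.38 (SD, n = 4 samples) in the IL-4eGFP+ gate and 1.24% ± 0.307 (SD, n = 4) in the IL-4eGFP- gate. The difference was 8.22 percentage points and the ratio 7.60 (exact two-sided permutation test, p = 0.0286, the smallest p that 4 against 4 samples can give). This test treats the samples as independent. It ignores that both organs and both gates came from the same mice, and no test that keeps this pairing was run on the shares.

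The organs differed less in cycling share than the gates. Within the IL-4eGFP+ gate medLN exceeded MLN by 0.861 percentage points, with overlapping samples (exact two-sided permutation test, p = 1.0). This difference rests on single samples, at -0.635 points without MLN mouse 1, 0.355 without medLN mouse 2 and 2.36 without MLN mouse 2. Within the IL-4eGFP- gate medLN exceeded MLN by 0.379 points (exact permutation test, p = 0.333, the smallest p that 2 against 2 samples can give). After thinning to 1500 UMIs the shares were 4.60% and 4.74% in IL-4eGFP+ medLN, 3.13% and 3.60% in IL-4eGFP+ MLN, 0.410% and 0.695% in IL-4eGFP- medLN and 0.271% and 0.556% in IL-4eGFP- MLN. At this equal depth both IL-4eGFP+ medLN samples lay above both MLN samples, by 1.30 points on average. The gates differed by 3.53 points and a ratio of 8.32 (exact permutation test without pairing by mouse, p = 0.0286). Thinning left out 329 and 207 cells with fewer UMIs in the IL-4eGFP+ and IL-4eGFP- gates, 1 cycling cell in each. The plot of shares by sample shows both depths.

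**Figure D1:**
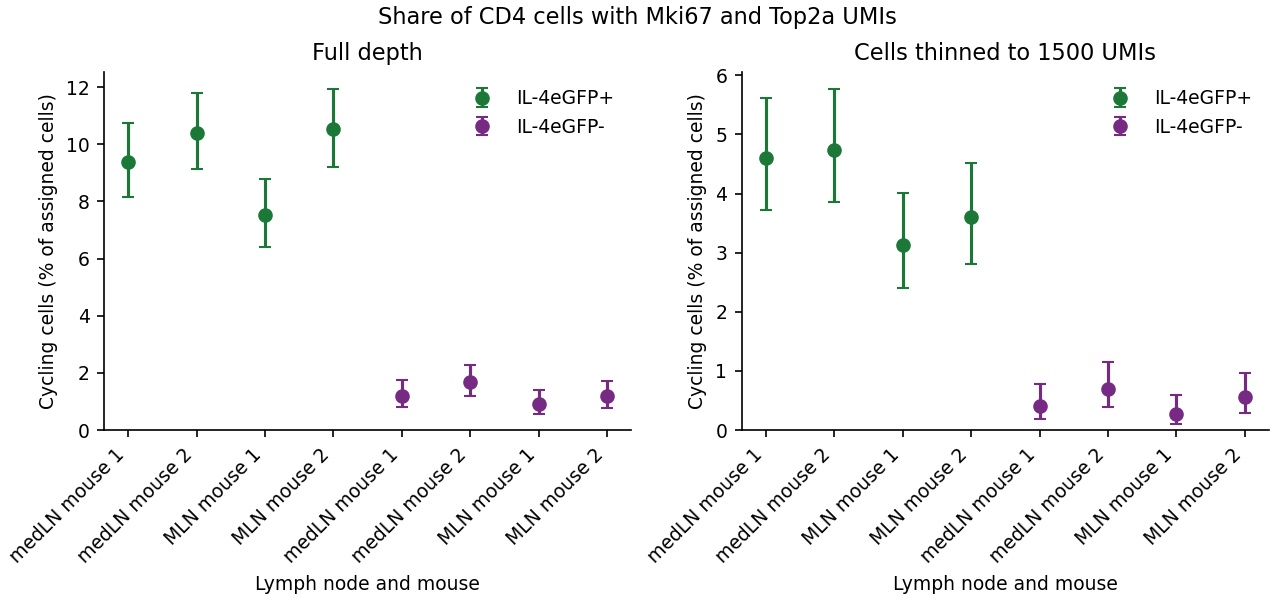
Share of assigned CD4 cells with at least 1 *Mki67* and 1 *Top2a* UMI (y axis, percent) in each lymph node and mouse (x axis), at full depth (left) and after thinning every cell to 1500 UMIs (right); bars are exact (Clopper-Pearson) 95% binomial intervals, which cover counting error only. All 4 IL-4eGFP+ samples lie above all 4 IL-4eGFP- samples at both depths.

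Cells at the edge of the rule carried weaker cell cycle programmes than the members as a whole. In the IL-4eGFP+ gate the 39 cells with exactly 1 *Mki67* and 1 *Top2a* UMI had a median of 6199 UMIs and 4976 CPM (UMIs scaled to the same total in every sum of cells) summed over 58 mitosis genes, against 13264 CPM in all members. Just outside the rule, 411 cells with *Mki67* but no *Top2a* UMI had 5488 CPM of the mitosis genes and 446 cells with *Top2a* but no *Mki67* UMI had 1864 CPM. Cells with neither had 1225 CPM. In the IL-4eGFP- gate 8 cells held exactly 1 UMI of both genes, 65 only *Mki67* and 154 only *Top2a*.

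Beyond the 2 genes of the rule, cycling cells held the machinery of DNA replication and mitosis together. The 58 replication genes summed to between 7385 and 9654 CPM in cycling cells of the 8 samples and to between 1179 and 1958 CPM in other cells. All 58 were higher in cycling cells in 8 of 8 samples, with a median log2 ratio of 2.70. Of the 58 mitosis genes 57 were higher in 8 of 8 samples, with a median log2 ratio of 4.74. *Pttg1*, which encodes securin, the inhibitor of sister chromatid separation, was lower in all 8 (-0.39). Across all genes tested 15.8% were higher and 18.4% lower in 8 of 8 samples, and the median log2 ratio was -0.17. All these values come from the contrast that the rule used.

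Single genes with the largest ratios belonged to S phase and mitosis. The linker histone gene *Hist1h1b* had a median log2 ratio of 7.26 over the samples, with 697 to 1132 CPM in cycling cells. *Pclaf*, whose product binds the replication clamp PCNA, stood at 6.62, and *Rrm2*, the ribonucleotide reductase subunit that supplies deoxynucleotides, at 6.32. *Nusap1*, a spindle protein gene, *Ube2c*, which encodes the ubiquitin-conjugating enzyme of the anaphase-promoting complex, *Birc5* (survivin) and *Cdk1*, the mitotic kinase, stood at 6.54, 6.29, 6.00 and 5.96. Of 67 replication-dependent histone genes, 60 passed the filter on low counts and 53 of these were higher in 8 of 8 samples. These histone genes are near-identical copies, so reads may have been split or shared among them.

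Of 14 genes that drive entry into the cycle in G1, 9 were higher and 1 was lower in 8 of 8 samples, with a median log2 ratio of 1.37. The cyclin E genes *Ccne1* and *Ccne2* and *E2f1* were higher in cycling cells in every sample, with median log2 ratios of 3.12, 3.18 and 2.48, whereas *Ccnd2*, a cyclin D gene that acts earlier in G1, was lower (-0.98). Among 14 cell cycle brakes 7 were lower in 8 of 8 samples, among them *Btg1* (-2.57), an antiproliferative cofactor, and *Cdkn1b* (-1.02), which encodes the kinase inhibitor p27. *Cdkn2c* (3.13) and *Cdkn2d* (0.93), inhibitors of cyclin D kinases, were higher. The interferon response list had 12 of 15 tested members lower in 8 of 8 samples, led by *Slfn5* (-3.46) and *Ifit1* (-3.16), and 9 of 15 glycolysis genes were higher. Sums over cells cannot tell fewer cells of a type from less RNA per cell.

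**Figure D2:**
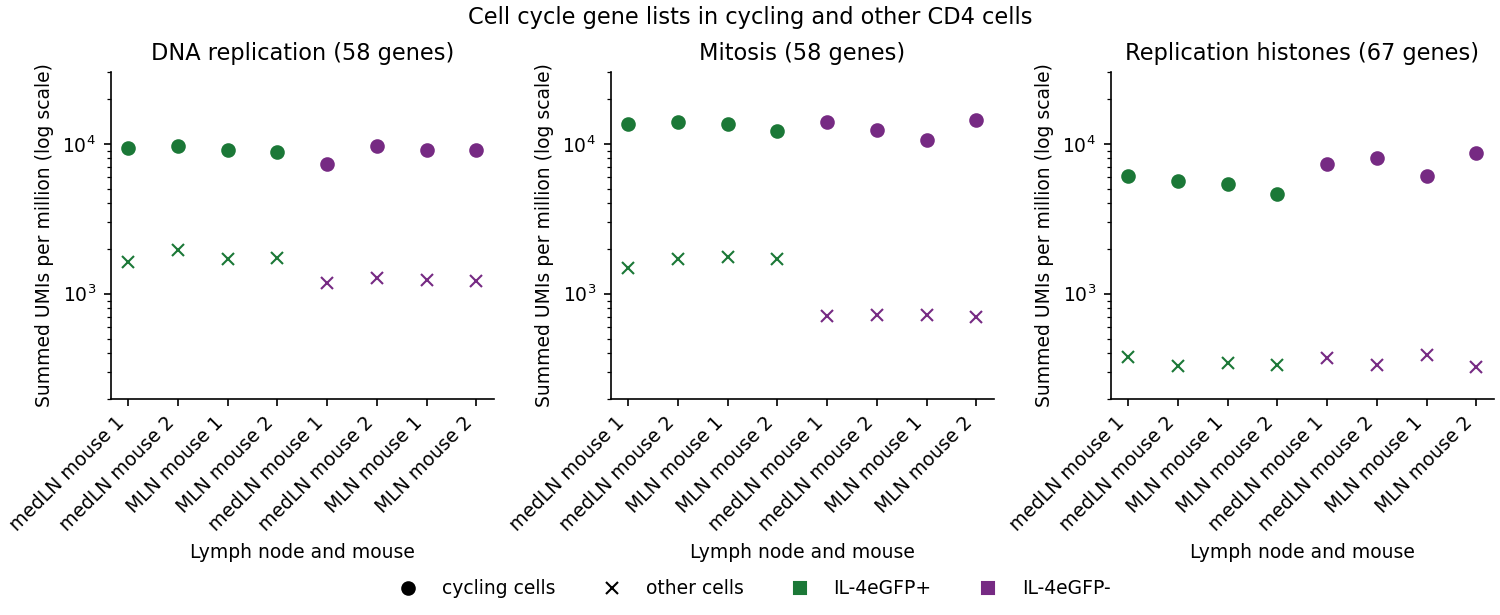
Summed CPM (y axis, log scale) of 58 DNA replication, 58 mitosis and 67 replication-dependent histone genes in cycling cells (circles) and other cells (crosses) of each lymph node and mouse (x axis), coloured by sort gate. Cycling cells lie above other cells in all 8 samples for the 3 lists, and other IL-4eGFP+ cells hold more mitosis UMIs than other IL-4eGFP- cells.

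Promoters of the mitosis genes were searched because these genes were higher together. The cell cycle genes homology region (CHR, letters TTTGAA) recruits the MuvB complexes that repress such genes in resting cells and activate them in G2, often beside a CCAAT box bound by NF-Y. Windows from 250 bases before to 50 bases after the start were taken from RefSeq (GRCm38.p6) and read on both strands, and 48 of 58 mitosis genes matched, with 52 windows. CHR letters occurred in 69.2% of these windows, in 17.9% of all 32851 promoter windows and in 12.5% of the windows of genes tested in cycling cells. CCAAT occurred in 78.8%, 37.4% and 38.2%, and both motifs in 61.5%, 6.95% and 5.22%. A match describes the sequence and is not a binding site. The replication list matched 45 of 58 genes, under 80%, so no share was compared for it. The 4 sites below belong to abundant mitosis genes, each printed 5′ to 3′ along its gene's strand with the CHR letters (TTTGAA, or TTCAAA on the opposite strand) in capitals. They lie at chr8:57511613-57511642 (+ strand), chr2:164769888-164769917 (+), chr3:89418351-89418380 (-) and chr5:30666890-30666919 (+), in this order, and average 3361, 746.8, 397 and 396 CPM in cycling cells.
*Hmgb2* promoter: ggcccgccatttTTCAAAcgcttttcctgc
*Ube2c* promoter: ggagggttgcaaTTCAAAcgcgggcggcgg
*Cks1b* promoter: ccaatcgaggacTTCAAAatggagctgtcc
*Cenpa* promoter: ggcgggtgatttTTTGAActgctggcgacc

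The next comparisons were made among cycling cells only, on UMI counts summed per sample. Within the IL-4eGFP+ gate 44 of 9005 genes tested, 0.489%, differed between medLN and MLN (edgeR quasi-likelihood test, Benjamini-Hochberg adjusted p below 0.05), 30 higher and 14 lower in medLN, and 587 had an unadjusted p below 0.05. With the mouse as a block, since both organs came from the same animals, 70 genes were called. No replication, mitosis or histone gene was among the 44 (0 of 58, 0 of 58 and 0 of 54 tested). Called genes included those of adhesion and homing.

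*Itgb1*, the integrin β1 chain, stood at 428 and 380 CPM in the 2 medLN samples and at 110 and 59.5 CPM in the 2 MLN samples. The log2 fold change was 2.29 ± 0.22 (SE; edgeR adjusted p = 0.000109). Both medLN samples lay above both MLN samples, an order that the choice of genes by direction in both mice favours. *S100a4*, a calcium-binding protein gene of motile cells, stood at 101 and 61.6 against 15.6 and 14.5 CPM (log2 2.44), and *Nrp1*, a semaphorin co-receptor, at 42.1 and 43.4 against 9.67 and 8.58 CPM (log2 2.24). *Id2*, an inhibitor of E protein transcription factors, and *Ahnak*, a large scaffold protein gene, rose less, by 0.58 and 0.79 on the log2 scale. *Pparg*, a nuclear receptor of Th2 effector cells, stood at 28.3 and 21.4 against 10.9 and 10.1 CPM. *Id2* and *Pparg* lost the call whichever of the 4 IL-4eGFP+ samples was left out (edgeR adjusted p up to 0.423 and 0.923), and *Ahnak* without MLN mouse 1 (0.0651).

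Genes higher in MLN included the gut-homing receptor. *Ccr9*, whose ligand CCL25 is made in the small intestine, stood at 0.965 and 7.98 CPM in medLN and 28.6 and 98.9 CPM in MLN (log2 -3.86 ± 0.57, edgeR adjusted p = 0.00483). A *Ccr9* UMI was present in 1.55% and 4.15% of cycling medLN cells and in 12.6% and 29.2% of cycling MLN cells, at median depths of 14588, 12833, 13056 and 14337 UMIs. *Lztfl1*, a ciliary trafficking gene, stood at 10.3 and 18.5 against 73.6 and 133 CPM (log2 -2.85 ± 0.28, edgeR adjusted p = 0.000109). In the GENCODE vM21 annotation of GRCm38 *Lztfl1* (chr9:123694416-123717697, - strand) lies within the span of *Ccr9* (chr9:123678439-123784330, + strand), and *Cxcr6* (chr9:123806475-123811760, + strand), a chemokine receptor of tissue T cells, follows. *Cxcr6* stood at 37.9 and 31.6 against 60.1 and 66.0 CPM (log2 -0.86). These 3 neighbours were all higher in MLN, and counting is not stated to use strand, so reads of the overlapping pair may not be fully separable. *Gimap7*, a lymphocyte GTPase gene, *Nfil3*, a transcription factor gene of type 2 cells, and *Satb1*, a chromatin organiser of T cells, were also higher in MLN, with log2 fold changes of -0.99, -1.31 and -0.67. *Ccr9* and *Gimap7* lost the call without medLN mouse 1 or without MLN mouse 2 (edgeR adjusted p up to 0.176 and 0.0813). *Satb1* lost it without medLN mouse 1, medLN mouse 2 or MLN mouse 1 (up to 0.271), and *Cxcr6* without any 1 of the 4 samples (up to 0.551).

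Other cells of this gate differed between the organs as well. *Itgb1* stood at 509 and 353 CPM in other medLN cells and 121 and 102 CPM in other MLN cells, and *Ccr9* at 15.7 and 17.4 against 68.9 and 102 CPM. A fit of whether the organ difference itself differed between cycling and other cells called 0 of 11498 genes with edgeR, where 496 had an unadjusted p below 0.05, DESeq2 called 1 and the fit with the sample as a block called 18. *Satb1* stood at 158 and 168 CPM in cycling medLN cells and at 286 and 237 CPM in cycling MLN cells, while other cells ranged from 249 to 272 CPM in both organs. By list, 3 of 12 tested Th2 genes (*Pparg* higher in medLN, *Cxcr6* and *Nfil3* lower), 3 of 16 homing genes (*Itgb1* and *S100a4* higher, *Ccr9* lower) and 1 of 14 regulatory T genes (*Nrp1*) were called, with 5, 5 and 2 under the block. *Il4* did not pass the test (104 and 143 against 114 and 135 CPM, log2 -0.02 ± 0.15). *Jchain*, at 164 and 42.1 against 2.52 and 5.03 CPM (log2 4.67), and *Mzb1* were called as well, and both rest on the few B lineage cells described above. *Jchain* lost the call without either MLN sample (edgeR adjusted p up to 0.0748) and *Mzb1* without MLN mouse 2 (0.0562). The plasma cell list summed to 451 and 199.5 CPM in medLN and 93.3 and 107 CPM in MLN. Without those cells 54 genes were called.

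**Figure D3:**
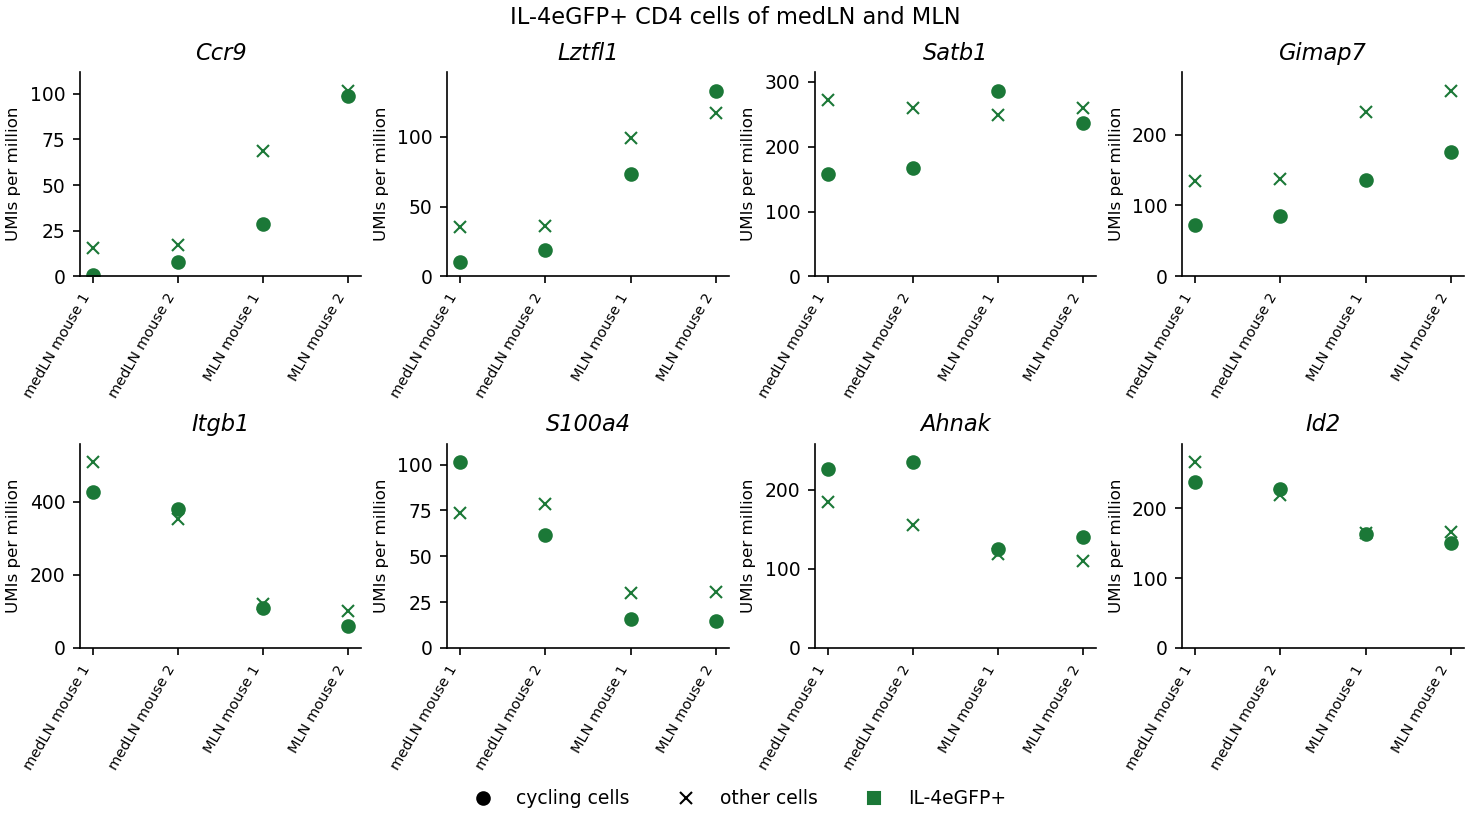
CPM (y axis, linear from 0) of 8 genes in cycling (circles) and other (crosses) IL-4eGFP+ cells of each lymph node and mouse (x axis). *Ccr9*, *Lztfl1*, *Satb1* and *Gimap7* are higher in both MLN samples of cycling cells, and *Itgb1*, *S100a4*, *Ahnak* and *Id2* in both medLN samples. The genes shown were chosen with their values known, so this order is a description.

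In the IL-4eGFP- gate cycling cells of medLN carried more transcripts of several regulatory T and homing genes than those of MLN. This comparison rests on 27 and 37 medLN cells and 21 and 26 MLN cells. Of 9005 genes 38, 0.422%, were called by edgeR (26 higher and 12 lower in medLN), and 867 had an unadjusted p below 0.05. After thinning to 1500 UMIs 1 gene was called. The regulatory T list had 4 of 14 members higher, a median log2 fold change of 1.29 against -0.01 over all genes tested, and 6 called under the block; leaving out 1 sample gave 2 to 5, the fewest without IL-4eGFP- MLN mouse 1. Again 0 of 58 replication, 0 of 58 mitosis and 0 of 54 histone genes were called.

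*Tnfrsf4*, the costimulatory receptor OX40, stood at 402 and 508 CPM in medLN and 69.3 and 70.3 CPM in MLN (log2 fold change 2.68 ± 0.21, edgeR adjusted p = 2.22e-05). *Il2ra*, the high-affinity interleukin-2 receptor chain, stood at 438 and 320 against 158 and 73.5 CPM (1.71 ± 0.24, edgeR adjusted p = 0.00599). *Ikzf2*, the regulatory T cell factor Helios, stood at 247 and 293 against 112 and 105 CPM (1.29 ± 0.25, edgeR adjusted p = 0.0391). For each of the 3 genes both medLN samples lay above both MLN samples, which is a description, since they were chosen with their values known. *Ctla4*, an inhibitory receptor that regulatory T cells use, stood at 443 and 280 against 69.3 and 118 CPM (1.87 ± 0.31, edgeR adjusted p = 0.0142). *Tigit*, another inhibitory receptor, and *Icos*, a costimulatory receptor, had log2 fold changes of 2.88 and 1.23. *Ctla4* lost the call without medLN mouse 1 or MLN mouse 1 (edgeR adjusted p up to 0.0965), and *Ikzf2* without medLN mouse 2 or either MLN sample (up to 0.208). In other IL-4eGFP- cells the organs lay closer, with *Tnfrsf4* at 116 and 155 against 73.4 and 67.5 CPM and *Il2ra* at 82.5 and 91.8 against 91.9 and 88.4 CPM.

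*Foxp3*, the master transcription factor of regulatory T cells, stood at 114 and 173 CPM in medLN and 26.9 and 73.5 CPM in MLN, and did not pass the test across genes (log2 1.45 ± 0.35, edgeR adjusted p = 0.135). With the mouse as a block it passed (1.45 ± 0.30, edgeR adjusted p = 0.0389). Counted by cell, 55.6% and 59.5% of cycling medLN cells held a *Foxp3* UMI against 9.52% and 19.2% of cycling MLN cells, while 9.73% and 11.8% of other medLN cells and 8.43% and 10.8% of other MLN cells did. Cycling IL-4eGFP+ cells, sorted as IL-4 licensed, held one in 1.38% to 5.19% of cells. Pooled over mice, 37 of 64 medLN and 7 of 47 MLN cycling cells had a *Foxp3* UMI, and after thinning the shares were 23.4% and 4.35%. Read the other way, 6.49% and 7.89% of medLN cells with a *Foxp3* UMI were cycling against 1.05% and 2.08% in MLN, and of cells without one 0.595% and 0.772% in medLN and 0.917% and 1.07% in MLN. At full depth, cells without a *Foxp3* UMI cycled at a lower share in both medLN samples than in both MLN samples, and cells with one at a higher share. When the rule too was applied to thinned counts, cells without one cycled at 0.391% and 0.455% in medLN and 0.238% and 0.549% in MLN. Their order therefore did not hold. The smallest p that an exact permutation test of 2 against 2 mice can give is 0.333, and these shares were not tested. Deeper cells show a *Foxp3* UMI more readily, and after thinning only 1 and 6 of the medLN cells with one, and 1 and 1 of the MLN cells, met the rule, so that the order was not detectable at this depth.

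Of 16 tested homing genes 4 were higher in medLN (*S100a4*, *S100a6*, *Lgals1* and *S100a10*) and 0 lower, with a median log2 fold change of 0.75. Of 7 tested Th1 and cytotoxic genes 0 were called, and 1 with the mouse as a block, with a median of -0.67. *S100a6*, a calcium-binding protein gene of activated cells, stood at 693 and 504 CPM in medLN and 80.8 and 12.8 CPM in MLN (log2 3.72 ± 0.34, edgeR adjusted p = 6.12e-05), and *Lgals1*, which encodes galectin-1, at 1574 and 1610 against 577 and 422 CPM (1.65 ± 0.14, edgeR adjusted p = 3.13e-05). *S100a4* stood at 95.1 and 158 CPM in medLN and at 0 in both MLN samples, at least 24.9-fold higher against a floor of 3 UMIs over the MLN group. *Klrg1*, a receptor of terminally differentiated T cells, had 68.0 and 61.1 CPM against 0 and 0, at least 12.2-fold higher, without passing the test across genes. Lower in medLN were *Dtx1*, a Notch pathway gene (log2 -1.68), *Treml2* (-1.56), *Btg1* (-0.94) and the ribosomal protein genes *Rps27* (-0.50) and *Rps24* (-0.35). *Btg1* lost the call in each of 8 fits that left out 1 sample (edgeR adjusted p up to 0.292), *Dtx1* and *Treml2* in all but the fits without an IL-4eGFP+ medLN sample (up to 0.203 and 0.232), and *Rps27* and *Rps24* without either medLN sample or MLN mouse 2 (up to 0.280 and 0.137). After thinning, *Btg1* and *Rps24* turned to 0.48 and 0.11. The mitochondrial genes *mt-Atp6*, *mt-Cytb* and *mt-Co3* were also called lower in medLN. When 1 sample was left out their log2 fold changes ran from -0.489 to -0.354, from -0.443 to -0.310 and from -0.337 to -0.285. *mt-Atp6* and *mt-Co3* turned after thinning as well, as given in the closing section. *Cd74*, an antigen presentation gene of B cells, was called at log2 3.90, with 236 of 270 and 152 of 216 medLN UMIs in the B lineage cells. Without these cells its log2 fold change was 1.59 (edgeR adjusted p = 0.163), and 29 genes were called in all. The B cell list summed to 1500.4 and 991 CPM in medLN and 219 and 243 CPM in MLN, with *Cd74* and *Ighm* its most abundant genes and *Cd79a* and *Ms4a1* at 0 in both MLN samples.

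**Figure D4:**
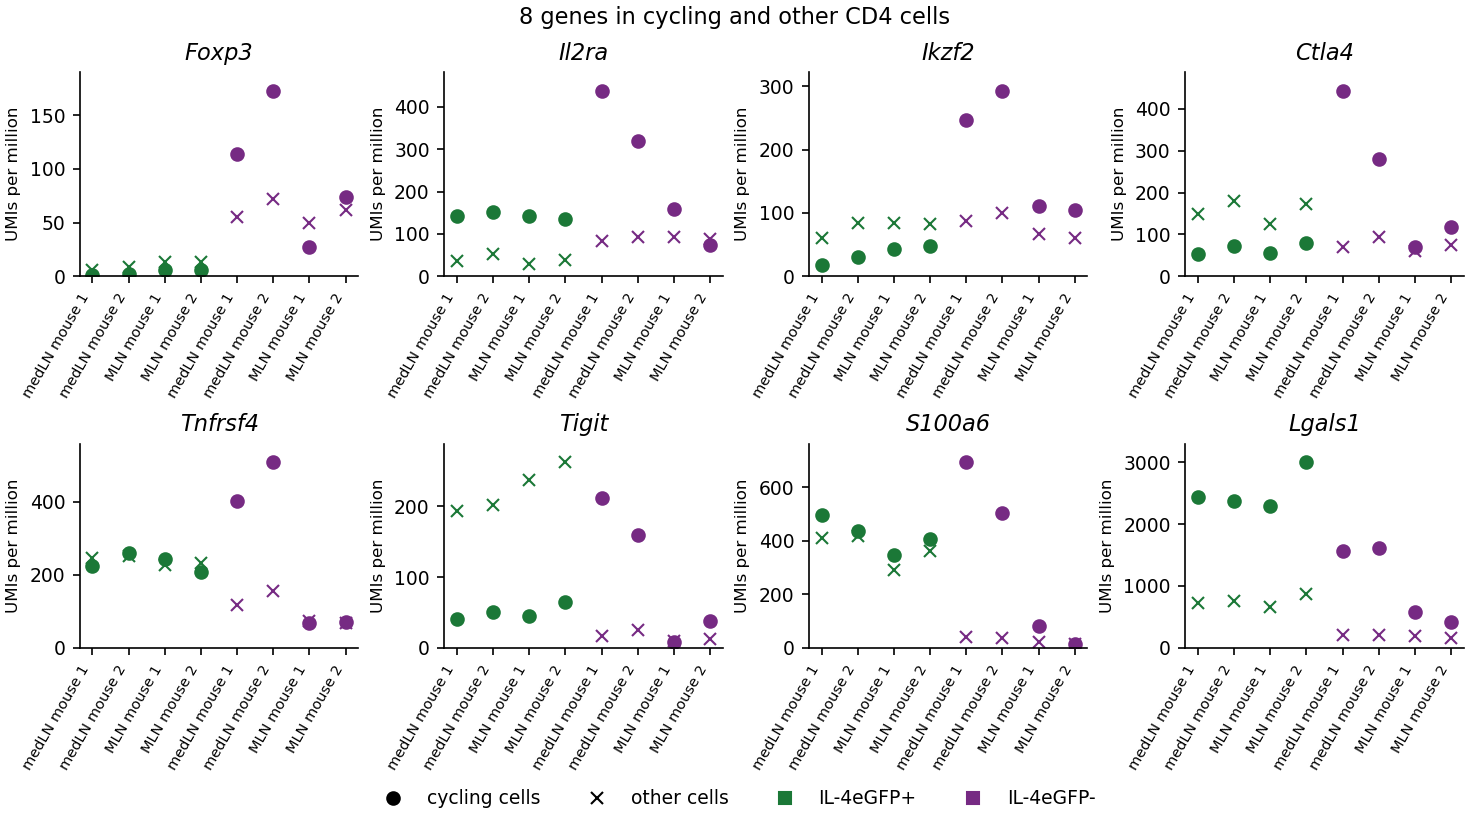
CPM (y axis, linear from 0) of 8 genes in cycling (circles) and other (crosses) cells of each lymph node and mouse (x axis), coloured by sort gate. For all 8 genes both cycling IL-4eGFP- medLN samples lie above both cycling IL-4eGFP- MLN samples. The genes shown were chosen with their values known, so this order is a description.

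Whether the organ difference itself differed between the gates was tested as an interaction, and 12 of 9005 genes, 0.133%, were called (edgeR, adjusted p below 0.05), with 792 at an unadjusted p below 0.05 and 22 called under the block. For 11 of them the medLN excess was smaller, or reversed, in the IL-4eGFP+ gate. *S100a6*, *Tigit*, *Tnfrsf4*, *Ikzf2*, *Pglyrp1*, an antibacterial peptidoglycan receptor gene, and *Lgals1* had interaction values of -3.42, -3.15, -2.57, -2.16, -2.13 and -1.79 on the log2 scale. Without IL-4eGFP+ MLN mouse 2 *Tigit*, *Ikzf2* and *Pglyrp1* lost the call (edgeR adjusted p = 0.0592, 0.0593 and 0.0687), and *Pglyrp1* also without IL-4eGFP- medLN mouse 2 (0.0666) or MLN mouse 1 (0.0664). *Tnfrsf4*, for example, stood at 225 and 260 CPM in cycling IL-4eGFP+ medLN cells and 243 and 208 CPM in MLN. *Nfil3*, *Il2ra*, *Srgn* (named after its value was seen, to complete the count), *Gimap7* and *Icos* were the other 5, and *Treml2* was called the other way (1.95). These 6 also lost the call in 3 to 7 of 8 fits that left out 1 sample (edgeR adjusted p up to 0.193). Of the 14 regulatory T genes 3 were called (1 without IL-4eGFP+ MLN mouse 2), and 5 under the block, where *Foxp3* (-3.29, edgeR adjusted p = 0.0196) and *Ctla4* (-1.99, edgeR adjusted p = 0.0346) were added. Organ calls in both gates coincided for 4 genes, *Ahnak*, *Capg*, *Dtx1* and *S100a4*, which are 9.09% of the IL-4eGFP+ and 10.5% of the IL-4eGFP- calls.

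More genes were called between the gates, with 4 samples each, than between organs, with 2 each. The median absolute log2 difference over the genes tested was 0.284 between gates, 0.126 between IL-4eGFP+ organs and 0.344 between IL-4eGFP- organs. Such a median rises with counting noise, and the cycling IL-4eGFP- samples held 256830 to 469320 UMIs in the test against 2353513 to 3342432 in IL-4eGFP+. Among other cells the medians were 0.289, 0.0927 and 0.0792, in the same order. Neither these medians nor the counts of calls therefore give an order of sizes. Of 9005 genes 967, 10.7%, were called between cycling IL-4eGFP+ and cycling IL-4eGFP- cells (edgeR, mean of both organs). In IL-4eGFP+ 440 (4.89% of genes tested) were higher and 527 (5.85%) lower, and the median log2 fold change of all genes was 0.02. After thinning to 1500 UMIs, which leaves few counts, 10 genes were called. *Il4* itself, whose locus the sort read, stood at 104, 143, 114 and 135 CPM in the IL-4eGFP+ samples and at 2.72, 2.11, 0 and 0 CPM in the IL-4eGFP- samples. *Gata3*, the master regulator of Th2 cells, stood at 175, 170, 193 and 193 against 111, 80.1, 69.3 and 44.7 CPM (log2 1.27 ± 0.14, edgeR adjusted p = 2.24e-05). The gates did not overlap for either gene. *Il13*, an effector cytokine of worm expulsion, stood at 61.4, 145, 8.41 and 215 CPM against 0 in all 4 IL-4eGFP- samples, at least 54.7-fold higher against a floor of 3 UMIs over the group. It varied so widely among IL-4eGFP+ samples that it did not pass the test (edgeR adjusted p = 0.054), and with the mouse as a block it passed (edgeR adjusted p = 0.00225). Of 12 tested Th2 genes 7 were higher in IL-4eGFP+, a count that includes *Il4*, whose direction the sort set in advance. The others were *Gata3*, *Il5* (at least 3.30-fold), *Il1rl1*, *Ccr4*, *Pparg* and *Cxcr6*, and *Il4ra*, the IL-4 receptor chain, was lower (-1.23). Leaving out 1 sample gave 4 to 7 higher, with 4 without mouse 2 of IL-4eGFP+ medLN, IL-4eGFP- medLN or IL-4eGFP- MLN. *Il5* lost the call in each of the 4 fits that left out 1 sample and still tested it, *Il1rl1* in 4 of 7 and *Ccr4* in 6 of 8 (edgeR adjusted p up to 0.121, 0.148 and 0.253).

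Some migration and metabolic genes were higher in cycling IL-4eGFP+ cells. Of 16 homing genes 6 were higher and 0 lower, with *Itgb1* at log2 2.06 ± 0.31 (edgeR adjusted p = 0.000445) and *Lgals1* at 1.45 ± 0.09 (edgeR adjusted p = 1.57e-07). *Lgals7*, a galectin gene, *Anxa2*, *Id2* and *Ahnak* had log2 fold changes of 3.45, 2.60, 1.66 and 1.66. Of 15 glycolysis genes 8 were higher and 0 lower, by small amounts for *Gapdh* and *Eno1* (0.17 each; under the block *Eno1* did not pass, edgeR adjusted p = 0.0553), and of 20 ribosome biogenesis genes 7 were higher and 0 lower, with the nucleolar genes *Ncl* at 0.59 and *Npm1* at 0.35 (DESeq2 called 4 of the 20). The follicular helper list had 5 of 13 tested genes higher, among them *Maf* (0.94), *Pdcd1* (1.26) and *Cxcr5* (2.25), the receptor for entry into B cell follicles. These counts rest partly on single samples. Ribosome biogenesis genes were called higher for 2 to 11 of 20 when 1 sample was left out, with 2 without IL-4eGFP- MLN mouse 2, 3 without IL-4eGFP+ medLN mouse 1, 4 without either IL-4eGFP+ MLN sample and 11 without IL-4eGFP- MLN mouse 1. Glycolysis genes were called for 5 to 8, with 5 without IL-4eGFP+ medLN mouse 1, and follicular helper genes for 3 to 5, with 3 without mouse 1 of IL-4eGFP- medLN or MLN. Leaving out 1 sample at a time, *Eno1* lost the call in 6 of 8 fits, *Cxcr5* in 5, *Pdcd1* and *Npm1* in 3 and *Gapdh* in 1 (edgeR adjusted p up to 0.222, 0.102, 0.110, 0.0927 and 0.0673).

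A number of regulatory T, naive and interferon genes were higher in cycling IL-4eGFP- cells. *Foxp3* stood at 0.965, 2.23, 6.30 and 5.92 CPM in IL-4eGFP+ and 114, 173, 26.9 and 73.5 CPM in IL-4eGFP- cells (log2 -4.82 ± 0.36, edgeR adjusted p = 7.38e-07). Of 14 regulatory T genes 11 were lower in IL-4eGFP+ and 0 higher, including *Ikzf2* (-2.42), *Tnfrsf9* (-2.10) and *Ctla4* (-1.56), and the list's median was -1.83. Of 10 naive and recirculating genes 7 were lower, including *Igfbp4* (-2.17), *Ccr7* (-1.79), the chemokine receptor that guides T cells into lymph nodes, and *Lef1* (-1.12), a transcription factor of naive T cells. Of 13 tested interferon response genes 6 were lower, among them *Ifi47* (-0.97) and *Usp18* (-2.48), which lost the call in 4 of 8 fits that left out 1 sample (edgeR adjusted p up to 0.605), and of 14 cell cycle brakes 5, among them *Btg1* (-0.97). The interferon count ranged from 2 without IL-4eGFP- MLN mouse 2, and 3 without IL-4eGFP- medLN mouse 1, to 10 without IL-4eGFP+ medLN mouse 1.

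Within the cell cycle machinery the histone list held the most calls between gates. Over all genes tested 4.89% were higher and 5.85% lower in IL-4eGFP+. Replication genes were called for 1 higher and 1 lower of 58 and mitosis genes for 1 higher and 3 lower of 58, with *Smc4*, a condensin subunit, at -0.65 and *Nusap1* at -0.60 (call lost in 3 of 8 fits that left out 1 sample, edgeR adjusted p up to 0.286). Replication-dependent histone genes were lower in IL-4eGFP+ for 28 of 54 tested and higher for 0, with a median log2 fold change of -0.77, and 27 were called under the block and 27 by DESeq2. Leaving out 1 sample gave 15 to 32, with 15 without IL-4eGFP- MLN mouse 2. *Hist1h3g* stood at 32.5, 25.9, 28.6 and 19.5 CPM in IL-4eGFP+ against 76.1, 56.9, 46.2 and 109 CPM in IL-4eGFP- cells (log2 -1.52 ± 0.24, edgeR adjusted p = 0.000683), whereas the linker histone gene *Hist1h1b* did not pass (0.05 ± 0.10, edgeR adjusted p = 0.797). Each gate is 1 library, and the ratio of summed mitosis to summed replication CPM overlapped between gates (1.46, 1.45, 1.49 and 1.39 against 1.88, 1.28, 1.17 and 1.59).

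**Figure D5:**
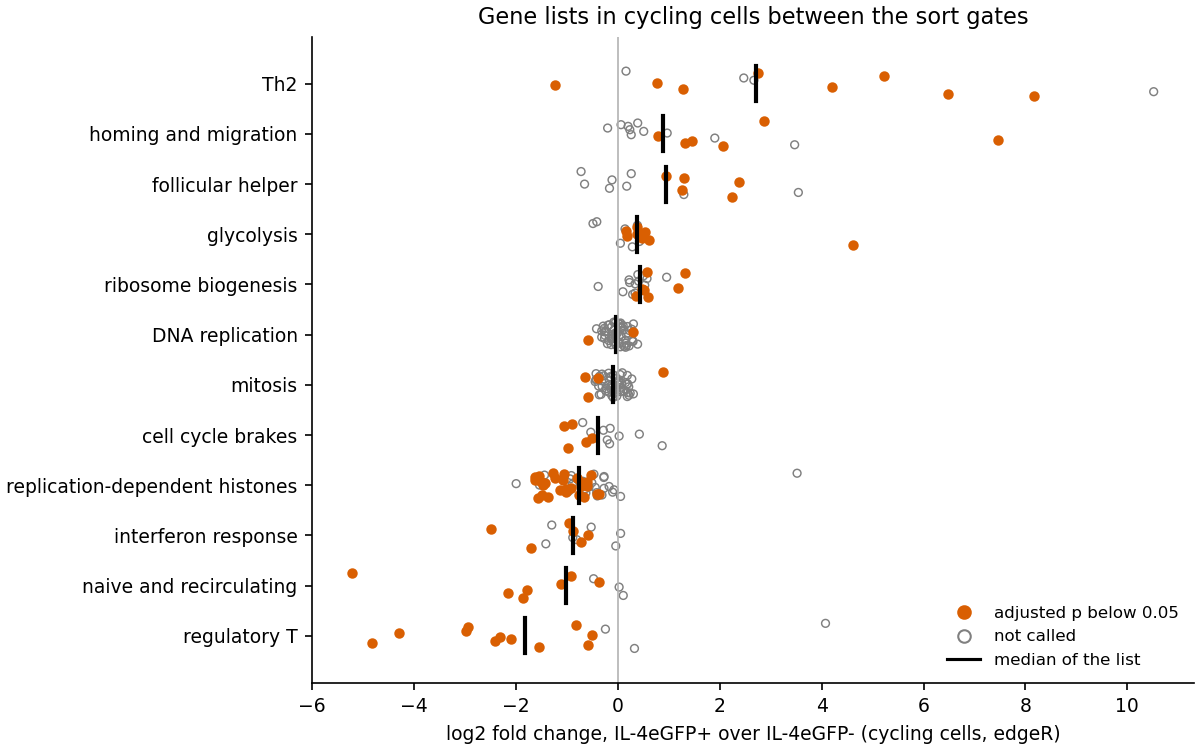
log2 fold change of every tested member of 12 gene lists in cycling cells, IL-4eGFP+ over IL-4eGFP- (x axis), with genes called by edgeR at an adjusted p below 0.05 filled and list medians as black bars; genes without a UMI in one gate are placed by the prior count of the fit. The Th2, homing and glycolysis lists lie to the right, the replication and mitosis lists around 0, and the histone, naive and regulatory T lists to the left. The Th2 list includes *Il4*, whose direction the sort set in advance.

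The gate difference was also compared between cycling and other cells, as a description. The fit called 1712 of 11498 genes, 14.9% (edgeR; 862 with a gate difference shifted towards IL-4eGFP+ in cycling cells and 850 towards IL-4eGFP-). Of 58 mitosis genes 48 were among the latter, and other IL-4eGFP+ cells held 1477 to 1748 CPM of them against 704 to 726 CPM in other IL-4eGFP- cells. The rule's own marker threshold shapes that contrast, and nothing is read from it for the replication, mitosis and histone lists. The split by the rule can shape other lists as well, so their counts and values are descriptions too. Ribosome biogenesis genes were called towards IL-4eGFP+ for 18 of 20 (13 without IL-4eGFP- MLN mouse 2). *Npm1* stood at 2373 to 3016 CPM in cycling IL-4eGFP+ cells and 1754 to 2406 CPM in cycling IL-4eGFP- cells, but at 1131 to 1229.8 CPM in other IL-4eGFP+ cells and 1454 to 1529 CPM in other IL-4eGFP- cells.

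Of 10 naive and recirculating genes 6 were shifted towards IL-4eGFP+ in cycling cells and 1, *Tcf7*, towards IL-4eGFP-, and of 14 cell cycle brakes 2 and 4. *Klf2*, a quiescence factor, stood at 606, 598, 616 and 622 CPM in other IL-4eGFP- cells against 290, 232, 187 and 204 CPM in other IL-4eGFP+ cells, whereas cycling cells ranged from 313 to 384 and from 275 to 435 CPM. The difference between the states was 1.69 ± 0.14 on the log2 scale, again a description of cells split by the rule. *Bcl2*, the survival factor, and *Igfbp4*, a naive T cell gene, had values of 2.21 and 3.14. Of 14 follicular helper genes 7 were shifted towards IL-4eGFP-, among them *Maf* (-2.43), at 256 to 273 CPM in other and 113 to 135 CPM in cycling IL-4eGFP+ cells, and *Pdcd1* (-2.23). *Cxcr5*, at 72.2 to 112 CPM in other and 11.3 to 25.2 CPM in cycling IL-4eGFP+ cells, was not called in this fit, and its counts in cycling IL-4eGFP- cells were low.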

How the data were processed

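UMI counts per gene and cell were deposited by the authors, who made them with Cell Ranger 6.1.2 on the mouse genome mm10 (GRCm38); hashtag counts stand in the same deposited table, aggregated over both gates. Whether aggregation thinned reads is not given in the sources used here. Cells with over 500 UMIs, over 500 genes and under 7% mitochondrial UMIs were kept, as in the study. Its further limit, a ratio of log10 genes to log10 UMIs above 0.8, was not applied here, and 4 of 17104 assigned and 0 cycling cells fell at or under it. Cells were assigned by hashtag (at least 80% of hashtag UMIs and 10 UMIs) and by barcode suffix (-1 IL-4eGFP+, -2 IL-4eGFP-). UMI counts were summed per sample over cycling and over other cells, and 664 rows (T cell receptor and immunoglobulin segments, *Mki67*, *Top2a*) were left out of tests. Fits used edgeR 4.0.16 in R 4.3.3 (filterByExpr, TMM, glmQLFit, glmQLFTest, Benjamini-Hochberg, threshold 0.05) with 1 mean per organ and gate; scripts were tested on simulated data. DESeq2 1.42.0 was an alternative. SE values follow from the F statistic. The mouse pairs the samples by the labels, since hashtags of both organs came from the same animals; same-mouse deviations correlated at 0.005 to 0.075 across genes.

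Members, gene lists and tests were chosen with earlier results of these data known. Genes named are the list members and, per comparison, those with the largest changes (up to 12 each way, 6 for interactions) among calls averaging at least 50 CPM with 1 direction in both mice, and for cycling against other cells up to 15 each way. Which list members are described was chosen after their values were seen, and some members are not reported here. Intervals are exact 95% binomial and, like floors of 3 UMIs, cover counting error only. Scrublet marked too few cells to have worked, so cells over 20000 UMIs were left out as an alternative. Lists with few tested genes and without a call in the organ comparisons when no block was used are given in the closing section. They are Th1 and cytotoxic, Th17, recent activation, myeloid, natural killer and erythroid. The lung and MLN run was not used here.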

Additional observations from a re-analysis of the deposited data

Results flagged for a closer look

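Among the 4 cycling IL-4eGFP- samples, 3 genes had 1 sample far from the others: *Plac8* at 15.97 CPM in MLN mouse 2 with 0 in the other 3, *Lgals7* at 96.2 CPM in MLN mouse 1 against 10.9 to 14.8 CPM, and *Actn1* at 304 CPM in MLN mouse 2 against 76.1 to 104 CPM. These are 3 of 58 groups of 4 samples checked, and chance picks about 1 in 20 groups.

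The organ difference of cycling cells differed between the gates, by the interaction test, for *S100a6* (-3.42), *Tigit* (-3.15), *Tnfrsf4* (-2.57), *Ikzf2* (-2.16), *Pglyrp1* (-2.13) and *Lgals1* (-1.79 on the log2 scale). *Tigit*, *Ikzf2* and *Pglyrp1* lost this call without IL-4eGFP+ MLN mouse 2. Between cycling and other cells the fit of the gate difference called 1712 genes, a description only, since the rule's own genes made that split and cell cycle genes are among the calls.

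Barcodes without 1 clear hashtag, which no comparison used, met the *Mki67* and *Top2a* rule in 22.1% of cases in the IL-4eGFP+ library (268 of 1213) and 3.02% in the IL-4eGFP- library (33 of 1094), above the 9.47% and 1.24% of assigned cells. Such barcodes can hold cells of more than 1 sample, and the part of doublets in these shares was not tested.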

How the results depend on the processing

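The gate difference in cycling share fell from 8.22 to 3.53 points after thinning to 1500 UMIs and lay between 6.33 and 8.86 points otherwise. Its p stayed at 0.0286 (exact two-sided permutation test without pairing by mouse), the smallest that 4 against 4 samples can give. A p at this limit cannot show stability. The direction of the gate difference was kept under every alternative run. These were at least 2 UMIs of both genes, thinning, a 95% hashtag minimum, no cells over 20000 UMIs and no B lineage cells. Each sample was also left out in turn. Scrublet removed 0 cycling cells and tests nothing here. The organ differences kept their direction under these, except that leaving out 1 sample gave -0.635 to 2.36 points in the IL-4eGFP+ gate, negative without MLN mouse 1 (cause not tested), and 0.146 to 0.611 in the IL-4eGFP- gate. Gene counts moved more. In the order IL-4eGFP+ organs, IL-4eGFP- organs, gates, interaction, organs by state and gates by state, the calls were 44, 38, 967, 12, 0 and 1712. Pairing by the replicate block gave 70, 49, 918, 22, 18 and 1754. No filter on low counts gave 163, 160, 1389, 124, 33 and 1983, and DESeq2 21, 53, 816, 22, 1 and 1812. Thinning to 1500 UMIs, which leaves few counts, gave 3, 1, 10, 1, 0 and 411. A 95% hashtag minimum gave 19 for the interaction and 1 for organs by state, and 2 UMIs of both genes gave 2 for the latter. Without cells over 20000 UMIs, an alternative chosen after seeing the data like the removal of B lineage cells, IL-4eGFP- organs gave 18, gates 552 and gates by state 1043. Leaving out 1 sample gave 13 to 57, 15 to 40, 568 to 885, 6 to 26, 0 to 1 and 1087 to 1552, with the lowest gate counts without IL-4eGFP- MLN mouse 2. Of the genes named by size, 4 of 14, 6 of 24, 23 of 24 and 3 of 6 stayed called whichever sample was left out, in the first 4 comparisons; the 6 of IL-4eGFP- organs were *S100a4*, *S100a6*, *Tigit*, *Tnfrsf4*, *Il2ra* and *Lgals1*. *Jchain* reversed without cells over 20000 UMIs (-1.41), and in thinned IL-4eGFP- cells *Btg1* (0.48), *mt-Atp6* (0.59), *Rps24* (0.11) and *mt-Co3* (0.064) reversed; apart from *Jchain*, whose UMIs lie in single cells, the cause was not tested. Calls that the block changed for genes described above are given beside them, and *mt-Atp6* lost its call between IL-4eGFP- organs (edgeR adjusted p = 0.0536). Comparisons of IL-4eGFP- cells rest on 111 cycling cells, against 774 in the IL-4eGFP+ gate.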

Other observations

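Further lists were compared between cycling cells of the 2 gates. *Il1r1*, the interleukin-1 receptor and the 1 tested gene of 7 Th17 genes, stood at 4.50, 7.02, 9.25 and 13.3 CPM in IL-4eGFP+ samples and at 0 in all IL-4eGFP- samples, at least 4.05-fold higher. Of 7 tested Th1 and cytotoxic genes 0 were higher and 1 lower in IL-4eGFP+, of 10 tested recent activation genes 0 and 1, and of 8 T cell identity genes 1 and 4, where 4.89% of all genes tested were higher and 5.85% lower. Without IL-4eGFP- MLN mouse 2 only *Cd3e* of the 4 T cell identity genes stayed called, and *Thy1*, the 1 higher gene, lost its call in 4 of 8 fits that left out 1 sample and *Irf8*, the recent activation gene, in 5. Between organs of the IL-4eGFP+ gate, and likewise of the IL-4eGFP- gate, edgeR without the block called 0 Th1, Th17, recent activation, interferon, glycolysis and T cell identity genes. With the mouse as a block it called 1 Th1 and cytotoxic gene in the IL-4eGFP+ gate and 1 in the IL-4eGFP- gate. The myeloid list had 1 gene tested among cycling cells, and the natural killer and erythroid lists had 0.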
